A study of Homo sapiens with 8 samples.

Results

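The MYC and MAX network was examined by RNA-seq in cells that the labels call A549, the name of a line derived from a human lung adenocarcinoma. Its members were taken by name from the deposited table and are MYC, MYCN, MYCL, MAX, MXI1, MXD1, MXD3, MXD4, MNT and MLX, which makes 10 of the 58735 genes listed. The EV group held 4 libraries of cells carrying an empty lentiviral vector, and the KRT19 group held 4 libraries of cells transduced with a lentivirus encoding Flag-tagged KRT19, a keratin of epithelial intermediate filaments. Both groups were stable lines selected with puromycin, and nothing in the sources shows whether the libraries of a group came from separate cultures, so that p-values measure the spread between these libraries, which may be technical. Total counts lay between 14073065 and 17054364 per library.

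The proteins of this network share a basic helix-loop-helix leucine zipper and bind DNA as pairs. MYC, MYCN and MYCL pair with MAX and activate genes for growth, ribosome assembly and metabolism, whereas MXI1, MXD1, MXD3, MXD4 and MNT compete for MAX and recruit the SIN3 corepressor to the same sites. MLX is an alternative partner that joins the network to the glucose-responsive factors MLXIP (MondoA) and MLXIPL (ChREBP). In lung adenocarcinoma, MYC is a common downstream effector of growth signalling and is best known for raising nucleolar and biosynthetic gene expression.

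The site that these pairs prefer is the E-box CACGTG, which reads the same on both strands. It was searched in windows from 250 bases before to 50 bases after each RefSeq transcript start (GRCh38.p14), where 9 of the 10 members had an entry and 3 of these held the E-box. MYC had no entry in the set of windows used, so its start was not searched. Counted by gene, 12.7% of the 10335 tested genes with an entry held CACGTG in at least 1 window. Counted by window, 3 of the 12 windows of the members held it, against 7.26% of all 35116 windows, and with so few members nothing is read from these shares. The E-boxes in the windows of MXD4, MNT and MLX are shown because they are sites of the network type in genes of the network itself. Each line runs 5′ to 3′ on the gene's strand with the E-box in capitals. They lie at chr4:2262330-2262359 (minus strand), chr17:2401236-2401265 (minus strand) and chr17:42567038-42567067 (plus strand), and the E-box begins 238, 193 and 50 bases before the start of MXD4, MNT and MLX.
MXD4: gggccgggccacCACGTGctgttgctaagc
MNT: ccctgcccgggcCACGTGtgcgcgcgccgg
MLX: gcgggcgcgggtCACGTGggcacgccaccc
These matches are descriptions of sequence, and binding was not measured in these libraries. The letters CACGTG were not in the windows of MYCL, MXI1, MAX, MXD1, MXD3 and MYCN.

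The labels were checked first. KRT19 had 1 to 5 counts in EV and 4353 to 5147 counts in KRT19 libraries. Its RNA was thus near the floor in EV libraries, whereas the study reports endogenous KRT19 protein in A549 cells. The cell line label was less clear. KRT8 and KRT18, keratins of simple epithelia, were at 189 to 231 and 274 to 347 CPM (counts scaled to library size by the TMM method), but EPCAM and CDH1, which encode epithelial surface adhesion proteins, had at most 3 counts in any library. A549 is known for a deletion that removes CDKN2A and MTAP, yet CDKN2A was at 94.2 to 107.9 CPM and MTAP at 41.8 to 50.9 CPM in these libraries. Of 7 genes typical of A549, NQO1 (424 to 453 CPM) and SERPINA1 (19.4 to 31.2 CPM) were present, while AKR1B10, AKR1C1, AKR1C2, ALDH1A1 and ALDH3A1 were at or below 2.75 CPM. The cells are therefore called by their labels only. The surfactant genes SFTPA1, SFTPB and SFTPC had 0 counts throughout, as did RCVRN of the retina, a tissue that the label text on extraction names, while NRL of the same list had 9 to 24 counts. The summed level of 5 immune markers lay between 0 and 0.243 CPM in EV and between 0.199 and 0.483 CPM in KRT19 libraries. KRT19 replicate 3 stood farthest from its group, since chi-square over its degrees of freedom was 7.77 to 13.6 against the other KRT19 libraries and 2.82 to 3.79 among those.

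MYC dominated the network at the RNA level. Levels between genes were compared as RPKM, the CPM divided by the gene length of the deposited table in kilobases. MYC was at 41.1 ± 0.989 RPKM in EV and 43.3 ± 1.97 RPKM in KRT19 libraries (SD, n = 4 each). MAX, the shared partner, followed at 9.75 ± 0.514 and 9.61 ± 0.795 RPKM, and MLX at 9.34 ± 0.733 and 8.98 ± 0.193 RPKM (SD, n = 4 each). Below them came MXD4 with a mean of 7.88 RPKM over the 8 libraries, MXI1 with 6.02, MXD3 with 3.85, MNT with 3.64, MXD1 with 2.04 and MYCL with 0.292 RPKM. The library ranges of MAX and MLX overlapped, as did those of MLX and MXD4 and of MXD3 and MNT, so that the order within these pairs is not resolved. All other neighbours in the order were apart in every library. The gene length covers the exons of all annotated transcripts, not only of those expressed, so the order also depends on it. By CPM, MXD4 (58.4 in EV) lay above MAX (43.2 in EV). MYCN, the family member of neural tissue, had 0 counts in all 8 libraries, which allows up to 0.176 to 0.213 CPM for counting error alone. It was also the 1 member that did not pass the filter on low counts.

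**Figure D1:**
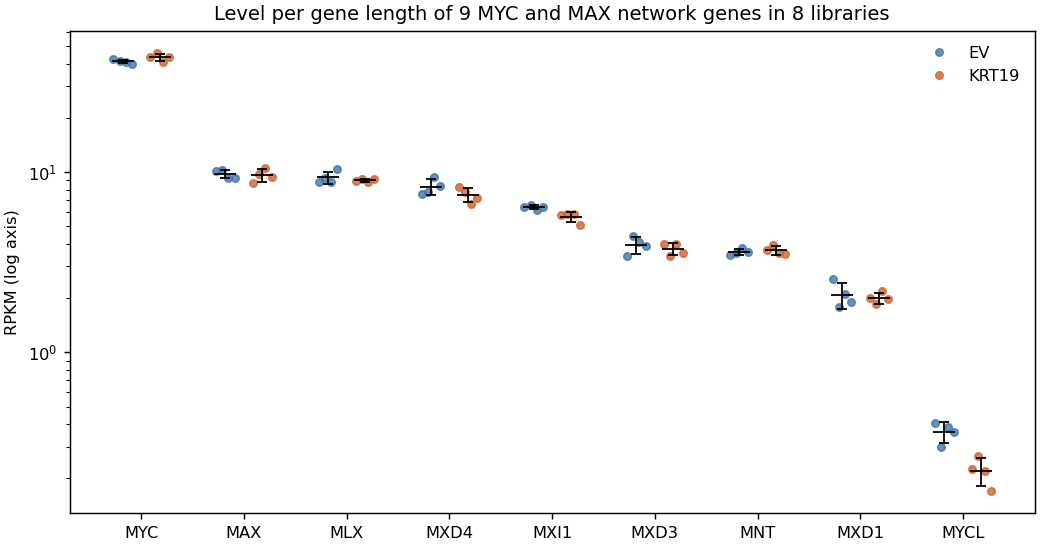
Level of 9 network genes in RPKM on a log axis, with 1 point per library (EV blue, KRT19 orange) and the mean and SD of each group. MYC lies at 39.9 to 45.7 RPKM, above every other gene in every library, and MYCL at 0.170 to 0.408 RPKM, below them all, while MYCN is not drawn because it had 0 counts.

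Counts of some members carry uncertainty from their neighbours, since the handling of strand and of reads shared between genes was not given in the sources used here. In GENCODE 29, MXD3 shares 926 exon bases with RAB24 on the same strand and 22.5% of its exon bases with PRELID1 on the opposite strand, and PRELID1 had 2867 to 4010 counts against 248 to 379 for MXD3. MLX shares 18.1% of its exon bases with PSMC3IP on the opposite strand. For MYCL, MXI1, MAX, MXD1 and MXD4 the shared part was at most 4.46% for any neighbour, and MYC shared none. MNT shared 12.2% with an antisense gene that had 0 counts.

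The question was then whether the network differed between EV and KRT19 libraries. No member passed the adjusted threshold of 0.05 (edgeR's quasi-likelihood test over 14621 genes, Benjamini-Hochberg), where 0.00684% of all tested genes passed, which was KRT19 alone. At an unadjusted p under 0.05, 2 of the 9 tested members were called, MYCL and MXI1, both lower in KRT19 libraries, against 5.41% of all tested genes in either direction (2.56% lower and 2.85% higher). The same 2 members did not overlap between the groups, as in 3.44% of all tested genes (1.81% wholly lower and 1.63% wholly higher). With 9 genes these counts are small, and the lowest adjusted p of a member was 0.868. In bulk RNA, fewer cells that express a gene and less RNA per cell cannot be told apart.

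Among the activators, MYC itself was nearly level between the groups. MYC (ENSG00000136997, plus strand of chromosome 8, 127735434 to 127741434) was at 127, 124, 123 and 119.8 CPM in EV replicates 1 to 4 and at 130, 137, 123 and 130.4 CPM in KRT19 replicates 1 to 4. KRT19 replicate 2 was the highest library, and KRT19 replicate 3 lay within the EV range, so the groups overlapped. The log2 fold change was 0.074 ± 0.051 (SE), a difference of 5.29% with a 95% interval from -2.23% to 13.4%, and an adjusted p of 0.906 (edgeR). With 1 library left out, the log2 fold change was highest without KRT19 replicate 3, at 0.10 (unadjusted p of 0.0457, edgeR). It was lowest without KRT19 replicate 2, at 0.048 (unadjusted p of 0.394, edgeR).

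MYCL, the L-MYC gene first known from small cell lung cancer, showed the widest difference of the network at a very low level. MYCL (ENSG00000116990, minus strand of chromosome 1, 39895426 to 39902256) had 31, 25, 32 and 31 counts in EV replicates 1 to 4 and 19, 19, 19 and 13 counts in KRT19 replicates 1 to 4. Every KRT19 library was lower than every EV library. MYCL averaged 1.84 ± 0.240 CPM in EV against 1.12 ± 0.201 CPM with KRT19 (SD, n = 4 each), and the exact permutation p was 0.029 (two-sided), the smallest that 4 against 4 libraries allow. This smallest p follows from the lack of overlap and adds nothing to it. The summed counts of 119 and 70 gave 1.83 CPM (95% exact Poisson interval 1.51 to 2.19) and 1.11 CPM (0.869 to 1.41), intervals that cover counting error only. This gave a log2 fold change of -0.71 ± 0.23 (SE), an unadjusted p of 0.00596 and an adjusted p of 0.868 (edgeR), at position 96 of the genes ordered by p. MYC exceeded MYCL by 103.7-fold to 139-fold per length in EV and by 171-fold to 256-fold in KRT19 libraries.

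**Figure D2:**
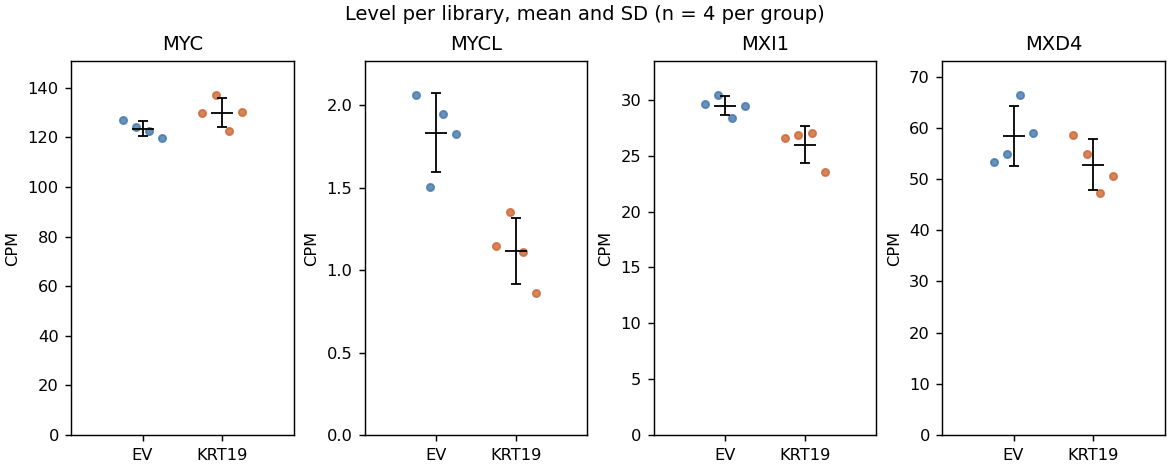
CPM of MYC, MYCL, MXI1 and MXD4 in each library (EV blue, KRT19 orange; axes start at 0) with the mean and SD of 4 libraries. All 4 KRT19 libraries lie below all 4 EV libraries for MYCL and for MXI1, whereas the groups overlap for MYC and MXD4.

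MAX, the shared dimerization partner of MYC and the MXD proteins, had overlapping levels in the groups. MAX (minus strand of chromosome 14, 65006174 to 65102695) was at 45.0, 45.3, 41.1 and 41.3 CPM in EV replicates 1 to 4 and at 38.5, 43.4, 46.9 and 41.4 CPM in KRT19 replicates 1 to 4. The lowest and the highest of the 8 values were both in KRT19 libraries. MAX had a log2 fold change of -0.021 ± 0.068 (SE), a 95% interval of -0.16 to 0.12 and an adjusted p of 0.977 (edgeR), and its sign turned when EV replicate 2 (0.0025) or KRT19 replicate 1 (0.025) was left out. MLX, the partner of the glucose-responsive branch, was at 37.5 to 44.2 CPM in EV and 37.4 to 39.1 CPM in KRT19 libraries, which gave -0.057 ± 0.064 on the log2 scale (SE) and an adjusted p of 0.941 (edgeR). Without EV replicate 4, the highest library of MLX, it was -0.0017.

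Of the repressors that compete for MAX, MXI1 gave the clearest separation. MXI1 (ENSG00000119950, plus strand of chromosome 10, 110207605 to 110287365), also known as a gene induced in hypoxia, was at 29.6, 30.4, 28.4 and 29.5 CPM in EV replicates 1 to 4 and at 26.6, 26.9, 27.0 and 23.6 CPM in KRT19 replicates 1 to 4. All KRT19 libraries were lower than all EV libraries, and KRT19 replicate 4 stood below the other 3. The log2 fold change was -0.18 ± 0.066 (SE), a difference of -11.7% with a 95% interval from -19.9% to -2.76%. The unadjusted p was 0.0146 and the adjusted p 0.906 (edgeR), and the exact permutation p was 0.029 (two-sided), the smallest possible here. That p follows from the lack of overlap and is no further evidence. Apart from MYCL, the other tested members had an exact permutation p from 0.114 (MYC) to 0.771 (MAX and MXD1). Without KRT19 replicate 4 the log2 fold change was -0.14 at an unadjusted p of 0.0708. The summed counts of 1917 and 1635 gave 29.5 CPM (95% exact Poisson interval 28.2 to 30.8) and 26.0 CPM (24.8 to 27.3). These intervals cover counting error only, not the spread between libraries.

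MXD4, a repressor of differentiating and resting cells, was at 53.3, 55.0, 66.4 and 59.0 CPM in EV replicates 1 to 4 and at 58.6, 54.9, 47.2 and 50.7 CPM in KRT19 replicates 1 to 4. EV replicate 3 was the highest and KRT19 replicate 3 the lowest library, and the others overlapped. MXD4 had a log2 fold change of -0.15 ± 0.078 (SE), an unadjusted p of 0.0773 and an adjusted p of 0.906 (edgeR). It ranged from -0.20 without KRT19 replicate 1 (unadjusted p of 0.0207) to -0.078 without EV replicate 3 (unadjusted p of 0.310).

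The remaining repressors overlapped between the groups. MXD3, a repressor that is expressed in dividing cells, was at 17.6 to 22.8 CPM in EV and 17.6 to 20.5 CPM in KRT19 libraries, with a log2 fold change of -0.081 ± 0.088 (SE). That value ranged from -0.14 without EV replicate 1 to -0.024 without EV replicate 2. MXD1, the first MAX dimerization protein described, was at 11.3 to 16.2 and 11.7 to 13.9 CPM, with -0.052 ± 0.11 (SE), and turned to 0.058 without EV replicate 1, its highest library. MNT, the most widely expressed repressor of the network, was at 30.1 to 33.2 and 30.7 to 34.5 CPM, with 0.026 ± 0.064 (SE), and turned to -0.0098 without KRT19 replicate 2. For MXD1, MXD3 and MNT the adjusted p was at least 0.936 (edgeR). Of the 5 repressors, 4 had a mean below that of EV, and 1 of the 5, MXI1, was called at an unadjusted p under 0.05, where 6984 of the 14621 tested genes had a lower mean and 2.56% were called lower. With 5 genes nothing is read from these counts.

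**Figure D3:**
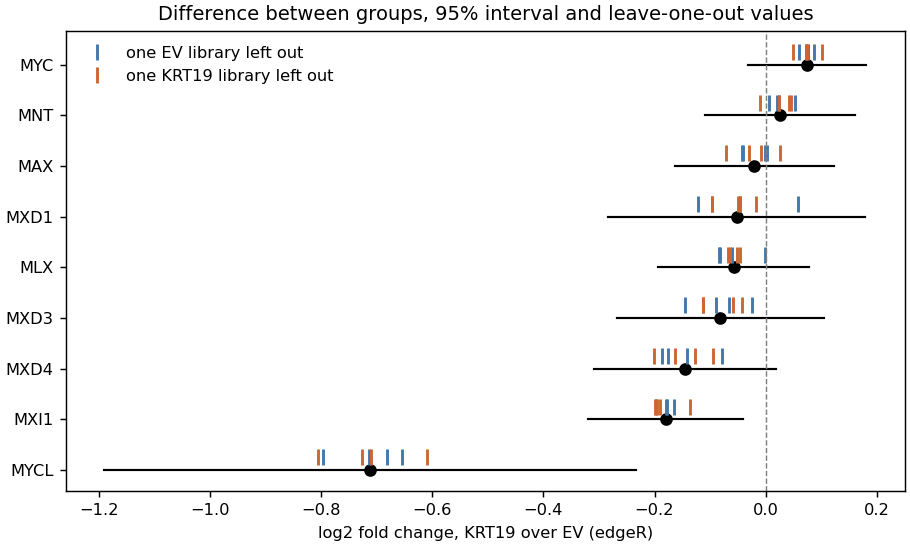
Log2 fold change (KRT19 over EV) of the 9 tested network genes with 95% intervals (black) and the value when each EV (blue) or KRT19 (orange) library was left out. The intervals of MYCL (-1.19 to -0.23) and MXI1 (-0.32 to -0.040) do not reach 0, and those of the other 7 genes include 0.

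The balance between MYC and its competitors was described as ratios of RPKM within each library, which do not depend on the scaling between libraries. The ratio of MYC to the sum of MXI1, MXD1, MXD3, MXD4 and MNT was 1.806, 1.714, 1.601 and 1.654 in EV replicates 1 to 4. In KRT19 replicates 1 to 4 it was 1.825, 2.001, 1.836 and 2.035. All KRT19 libraries were higher, but the highest EV library (1.806) and the lowest KRT19 library (1.825) lay close together. The ratio of MYC to MXI1 alone was 6.24 to 6.65 in EV and 6.97 to 8.50 in KRT19 libraries, without overlap. The ratio of MYC to MAX was 4.05 to 4.41 and 3.86 to 4.98, with KRT19 replicate 3 below all EV libraries and the other KRT19 libraries above them. The ratio of MYC to MLX, 3.84 to 4.80 and 4.66 to 4.97, also overlapped. These ratios were chosen with the gene values known and were given no test. Their size depends on the gene lengths used.

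**Figure D4:**
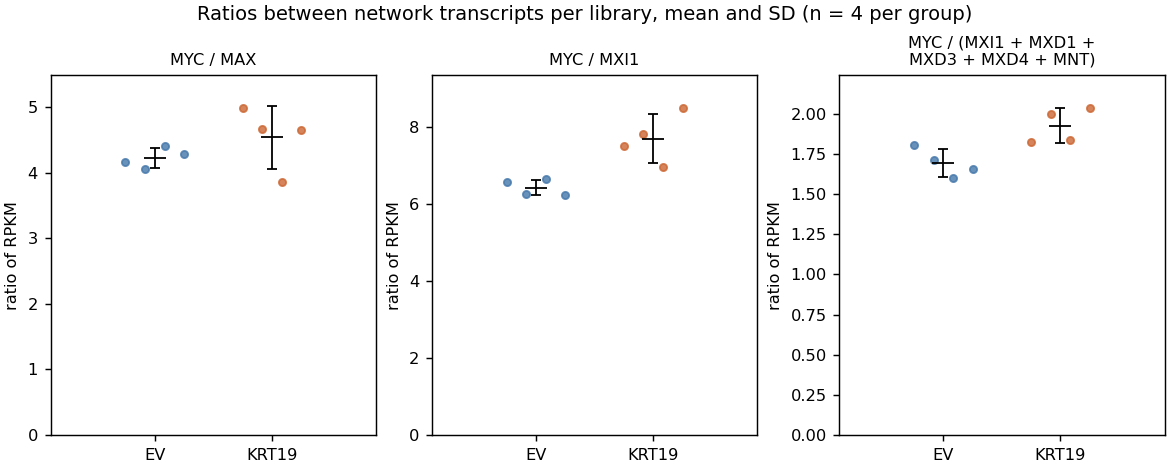
Ratio of MYC to MAX, to MXI1 and to the sum of 5 repressors in each library, from RPKM (EV blue, KRT19 orange; axes start at 0), with the mean and SD of 4 libraries. The means are 4.23 and 4.54 for MAX with overlap, 6.44 and 7.70 for MXI1 without overlap, and 1.69 and 1.92 for the sum of repressors, where the groups almost touch.

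The rest of the network was taken from lists of its known factors. MGA, a MAX partner with a second DNA-binding domain, had a log2 fold change of 0.049 ± 0.064, MLXIP of 0.11 ± 0.058 and MLXIPL of -0.26 ± 0.25 (SE), and none was called at an unadjusted p under 0.05. None of the 20 tested cofactors of MYC (MYC_cofactors, such as TRRAP, EP400 and WDR5) was called, with a median log2 fold change of 0.025, against 0.0051 over all tested genes. Of 20 genes for the turnover of MYC protein (MYC_turnover), 1 was called, a share of 5% that is no higher than the 5.41% of all tested genes. This was CIP2A, an inhibitor of the phosphatase that destabilises MYC, at 47.1 to 54.8 CPM in EV and 54.4 to 72.7 CPM in KRT19 libraries, which gave 0.24 ± 0.081 on the log2 scale (SE) and an adjusted p of 0.889 (edgeR). The E3 ligase FBXW7 and the other 18 genes were not called. Of 15 genes of the SIN3 complex (SIN3_corepressor), through which MXD proteins act, 1 was called (6.67%, close to the 5.41% of all tested genes), ARID4A, at 14.1 to 16.2 CPM in EV and 14.6 to 24.7 CPM in KRT19 libraries (0.32 ± 0.13, SE, adjusted p of 0.906 in edgeR). SIN3A, SIN3B, HDAC1 and HDAC2 were among the 14 that were not called.

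Of the genes known to be activated by MYC, more had a higher than a lower mean in KRT19 libraries, and none passed the adjusted threshold. Of 68 listed genes (MYC_targets), 67 were tested, and 55 of them had a higher mean in KRT19 libraries, against 52.2% of all tested genes. At an unadjusted p under 0.05, 14 were higher and 1 was lower, which is 22.4% of the list against 5.41% of all tested genes. The median log2 fold change was 0.076, against 0.0051 over all tested genes. All tested genes were not matched to the list for level, and the list was given no test. This list holds many nucleolar genes and was drawn up with earlier results of these libraries known, so it is not independent evidence. The number called higher was also 14 without KRT19 replicate 3, but 7 without EV replicate 4, 9 without EV replicate 3 and 6 with the replicate number as a block. The median log2 fold change fell to 0.053 without EV replicate 1 and to 0.051 without KRT19 replicate 1.

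The 14 genes called higher were GNL3, MYBBP1A, WDR43, TCOF1, MPHOSPH10, NPM1, NCL, DDX18, IMP4, RRP12 and NOC4L, which act in the nucleolus or in ribosome assembly, and HSPE1, PLK4 and MCM4, which act in protein folding, centriole duplication and DNA replication. GNL3, a nucleolar GTPase, was at 64.7 to 71.1 CPM in EV and 76.8 to 87.1 CPM in KRT19 libraries, with a log2 fold change of 0.23 ± 0.058 (SE). MYBBP1A, a nucleolar regulator of ribosomal RNA synthesis, was at 85.7 to 90.4 and 96.3 to 102.5 CPM, with 0.18 ± 0.050 (SE). WDR43, a component of the early small-subunit processome, was at 62.9 to 69.9 and 72.0 to 92.5 CPM, with 0.24 ± 0.072 (SE). None of the 3 overlapped between the groups, as was so in either direction for 11 of the 67 list genes and 3.44% of all tested genes, and their adjusted p was 0.660, 0.766 and 0.868 (edgeR). The 1 list gene called lower was LDHA, lactate dehydrogenase A, at 2043 to 2209 CPM in EV and 1586 to 1937 CPM in KRT19 libraries, with -0.21 ± 0.057 (SE) and an adjusted p of 0.766 (edgeR). The 29 tested list genes with a CACGTG in their promoter window had a median log2 fold change of 0.075, and the 26 without it had 0.071.

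Genes that MYC is known to repress (MYC_repressed) gave 2 calls among 12 tested, both lower, where 2.56% of all tested genes were called lower. Of the 12, 8 had a higher mean in KRT19 libraries, and the median log2 fold change was 0.020. The called genes were the cyclin-dependent kinase inhibitors CDKN1A, at 198 to 221 CPM in EV and 173 to 195 CPM in KRT19 libraries, and CDKN1B, which encodes p27, at 46.3 to 51.2 and 40.4 to 46.8 CPM. The log2 fold change of CDKN1A was -0.17 ± 0.053 (SE), with an adjusted p of 0.868 (edgeR). That of CDKN1B was -0.15 ± 0.062 (SE), with an adjusted p of 0.906 (edgeR), and the groups overlapped for CDKN1B. CDKN1A encodes p21, which the study picked out from these same libraries, so it is not independent evidence for the list. Of 5 genes downstream of MLX and MLXIP (MondoA_MLX_targets), the 3 that were tested, ARRDC3, KLF10 and HBP1, gave no call and a median of 0.013.

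**Figure D5:**
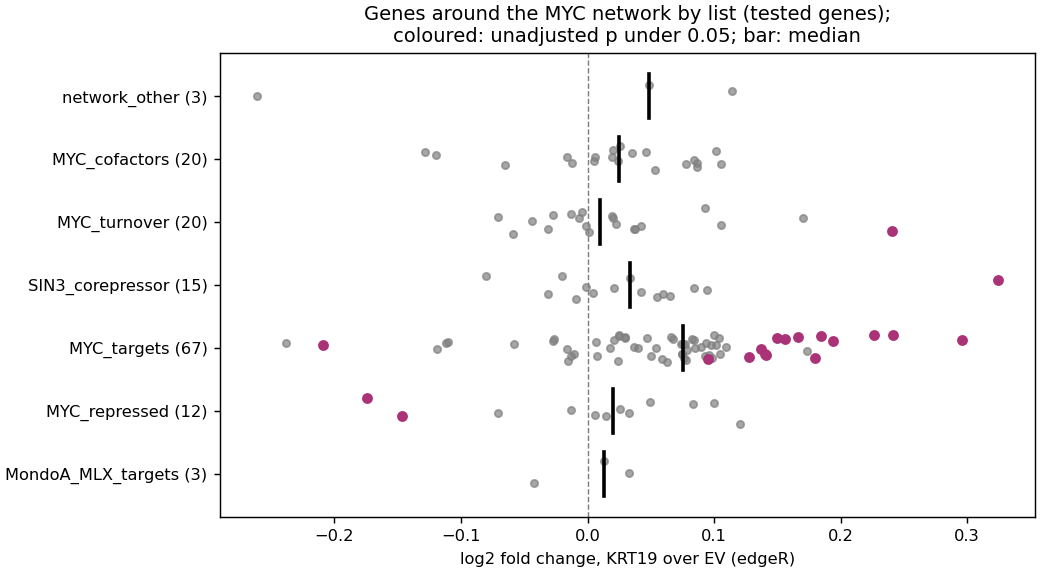
Log2 fold change (KRT19 over EV) of the tested genes of 7 lists around the network, with the number tested in parentheses, genes at an unadjusted p under 0.05 coloured and the median of each list as a bar. MYC_targets has the highest median (0.076) and 15 of the 19 coloured points, 14 of them to the right of 0.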

How the data were processed

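The deposited data are raw counts of reads for each gene, 1 column for each library, not normalized by the authors. The submitters' processing notes name Bowtie 0.12.2, featureCounts 1.5.0-p3, DESeq2 and hg38, without saying what each was used for. Coordinates, names and gene lengths are those of the table. Genes were kept by filterByExpr (14621 of 58735) and compared in R 4.3.3 with edgeR 4.0.16 (TMM, glmQLFit, glmQLFTest, group as the only term, two-sided, Benjamini-Hochberg over all tested genes). Log2 CPM used a prior count of 2. SE was taken from the fold change and its F statistic. Single values were compared by exact permutation of the libraries.

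Alternatives used DESeq2 1.42.0, limma 3.58.1 (voom), other scalings and filters, a replicate block and leaving out each library. In simulated data with the real means, 72% of genes given a log2 change of 0.5 were recovered and 9% of those given 0.25. The size measured was below 0.25 for every tested member but MYCL. Recovery was taken over randomly chosen genes of all levels, so it does not show what would be recovered at the low counts of MYCL.

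Members and lists were chosen with earlier results of these data known, and list genes were given with full values by lowest unadjusted p under 0.05 (at most 4 per list). Other list genes (MGA, MLXIP and MLXIPL, examples of a list, members of a count, genes near 0 counts) were named outside this rule, after their values were seen.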

Additional observations from a re-analysis of the deposited data

Results flagged for a closer look

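In 20 groups of 4 libraries (9 network genes and KRT19), the extreme library was compared with its nearest neighbour, and the distance between them, divided by the whole range of the group, was set against Dixon's 95% critical value of 0.829. It was larger 2 times, where chance gives about 1 in 20 groups. For MXI1 this was KRT19 replicate 4, with a log2 CPM of 4.57 where the rest of its group had 4.74 to 4.76, a gap of 0.881 of the range. Without this library the unadjusted p of MXI1 was 0.0708 (edgeR). For KRT19 itself it was KRT19 replicate 3, with a log2 CPM of 8.17 where the next library had 8.28, a gap of 0.949 of the range. The part of either library in these gaps was not tested.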

How the results depend on the processing

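No member passed the adjusted threshold under any of the 16 alternatives, and 139 of 143 member values kept their direction. MYCL was called at an unadjusted p under 0.05 under all 15 alternatives that could test it (the stricter filter removed it), MXI1 under 15 of 16, MXD4 under 4 and MYC under 2. The number of members called was 2, but 4 with limma-voom, 1 with the stricter filter and 1 to 3 when 1 library was left out (1 without KRT19 replicate 4). The list genes called numbered 19, but 30 with limma-voom, 10 with the replicate block and 11 to 24 with 1 library left out (11 without EV replicate 4). The MYC_targets genes called higher numbered 14, but 6 with the replicate block and 7 to 15 with 1 library left out. Of all genes, 1 passed the adjusted threshold, but 71 with the looser filter, 8 with limma-voom, 5 with the DESeq2 Wald test and 1 to 5 with 1 library left out (5 without KRT19 replicate 3, 3 without EV replicate 1). At an unadjusted p under 0.05 there were 791, but 451 with the replicate block, 1559 with the looser filter, 1337 with limma-voom and 620 to 1228 with 1 library left out (1228 without KRT19 replicate 1). Signs turned for MAX (-0.072 to 0.025), MXD1 (-0.12 to 0.058) and MNT (-0.0098 to 0.052) over the fits that left out 1 library. The cause was not tested. The residuals of libraries that share a number correlated at -0.111, -0.0239, -0.159 and 0.0567, which shows no strong shared deviation. Whether libraries of the same number were made together is not known. Under the replicate block MYCL and MXI1 kept an unadjusted p of 0.0123 and 0.0394 (edgeR). With 3 against 4 libraries the exact permutation p of MYCL and MXI1 was 0.0571 in each case, the smallest that size allows. Depth limits MYCL and MYCN most, at no more than 32 and 0 counts in any library.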

Other observations

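Several list genes were near or at the floor of detection in all 8 libraries. They were picked out after their values were seen. TXNIP and ARRDC4, arrestin-like proteins that restrain glucose uptake and are the best known targets of MLXIP and MLX, had at most 2 and 1 counts. CCND2, the cyclin D2 gene and a known MYC target, had 0 counts. NDRG1, a gene that MYC is known to repress, had at most 1 count. IPO4, an importin, and NOP2, a ribosomal RNA methyltransferase that dividing cells use, had only 6 to 25 and 6 to 18 counts. Whether these low counts reflect expression or the counting of reads was not tested.

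Tested genes with a promoter window were divided by whether it held CACGTG, and the difference was not tested. Of 1314 genes with it, 5.48% had an unadjusted p under 0.05 and 55.2% had a higher mean in KRT19 libraries, against 5.15% and 52.2% of the 9021 genes without it. The median log2 fold change was 0.011 with it and 0.0047 without it.

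The genes whose level varied most like that of MYC over the 8 libraries, among 9511 genes at 10 CPM or more, were NUP88, a nuclear pore protein, NFKB1, a subunit of NF-kappa-B, and MCM6, a subunit of the replicative helicase. The root mean square difference of their centred log2 CPM from that of MYC was 0.022, 0.024 and 0.025, against a median of 0.105 over all genes compared. Their own log2 fold changes were 0.063, 0.075 and 0.086. MYC varied little (log2 SD 0.035 in EV and 0.066 in KRT19 libraries), so genes of small spread lie close to it by this measure. As the closest of 9511 genes over 8 libraries, the 3 were given no test, and no shared regulation is read from them.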
